A study of Mus musculus with 4 samples.

Results

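The YY1 library of mouse embryonic stem cells held 12053 peaks of crosslinked RNA, and 1013 of them stood alone. An isolated peak here is a peak of 150 to 1000 bases on chromosomes 1 to 19 with no other peak of either strand within 100 kb (100000 bases), measured edge to edge. The positions and widths in the peak lists chose these members, so their distance from other peaks is a description and not a finding. They were 11.3% of the 8932 peaks of that width on those chromosomes (95% interval 10.7 to 12.0). The remaining 7919 peaks of the same width range, each with another peak within 100 kb, are called the other peaks below. Together the isolated peaks covered 356 kb.

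The series compared RNA bound by YY1 or by OCT4 with RNA from control cells, in 4 libraries with 1 in each group. CLIP-seq joins RNA to protein with ultraviolet light, here of 254 nm, and sequences what is captured with the protein. Cells of every group made BirA, a bacterial biotin ligase. The YY1 cells also made BioYY1, a tagged YY1 captured through its biotin on streptavidin beads, the OCT4 cells made a tagged OCT4 (Bio-Oct4), and the control cells made BirA alone. All were grown on irradiated mouse embryonic fibroblasts, and nuclei were purified before capture. The isolated peaks come from the YY1 library, and the other 3 libraries were not analysed here, so no peak was set against a control. Each peak has a position, a width and a strand but no height or read count, and read depth is unknown. The 95% intervals reflect only how many peaks were counted, as if each were a separate draw. Between-replicate error cannot be had from 1 library, and no p-value is given.

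YY1 is a zinc finger transcription factor that binds DNA at promoters and enhancers and can also bind RNA. Active promoters and enhancers are commonly transcribed in both directions, and the RNA from enhancers is short, rarely spliced and quickly degraded. Long transcripts, by contrast, can give many peaks along the same strand. Whether a lone peak lies at a distal element or in a gene with few other bound stretches is a question for a gene annotation. All positions below are 1-based coordinates of mm9, the genome build named in the submitters' processing notes. Genes and bases of that build were not used here, so the gene, exon or intergenic place of each peak, its bases, and the markers of stem cells and of the fibroblast feeders were not tested.

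The isolated peaks lay in long empty stretches. The nearest other peak was a median of 192 kb away (95% interval 183 to 203), and the quartiles were 134 and 353 kb. For the other peaks the median was 11.8 kb. Of the isolated peaks, 1004 had a peak on both sides, and 9 were the first or last peak of their chromosome. The farther of the 2 flanking peaks was a median of 620.3 kb away (576 to 692.5). The whole stretch between the flanking peaks had a median length of 889 kb and reached at most 9607 kb. In 151 cases both flanking peaks were over 500 kb away, and in 47 cases over 1 Mb.

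**Figure D1:**
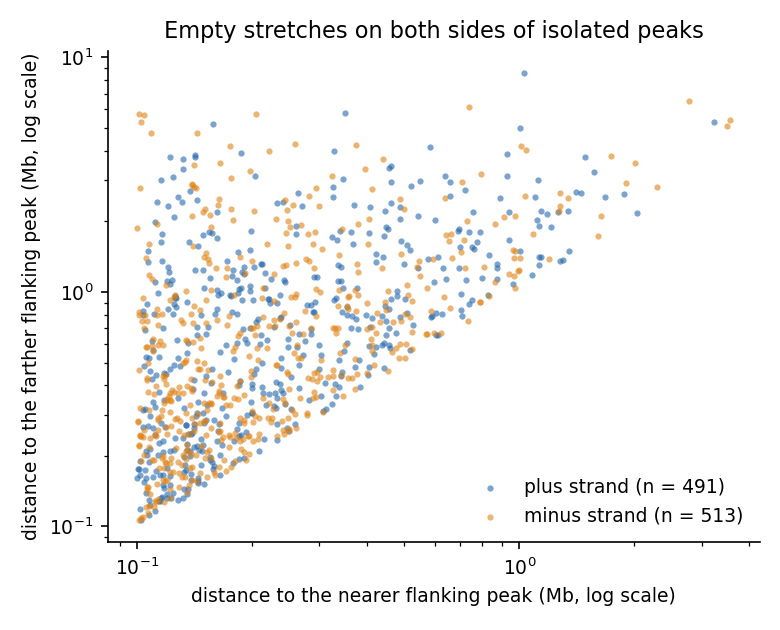
Each point is 1 of the 1004 isolated peaks with a peak on both sides; the horizontal axis gives the distance to the nearer flanking peak and the vertical axis that to the farther one, in Mb on log scales, with plus-strand peaks (491) in blue and minus-strand peaks (513) in orange. Most points lie well above the diagonal edge, where both distances are equal, and both strands fill the same area.

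The limit of 100 kb cut through a continuous range of distances. Just past it lay chr12:17391338-17391943 on the plus strand, with a nearest distance of 100153 bases. It was followed by chr10:92523140-92523372 on the minus strand, at 100157 bases, and chr8:86622637-86623103 on the minus strand, at 100423 bases. Just short of it were chr17:47985778-47985952 on the plus strand, at 99983 bases, chr5:36708029-36708373 on the minus strand, at 99794 bases, and chr5:145894404-145894736 on the minus strand, at 99738 bases. These 6 peaks were 175 to 606 bases wide, and the widths on the 2 sides overlapped. The median width of the 89 peaks from 100 to 110 kb was 311 bases, and that of the 104 peaks from 90 to 100 kb was 318.5 bases.

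The farthest peak from all others was chr1:102076621-102077004 on the minus strand, 384 bases wide. No other peak lay within 3.56 Mb before it or 5.43 Mb after it. The next was chr5:81330132-81330290 on the minus strand, only 159 bases wide, with 3.49 Mb empty before it and 5.11 Mb after it. These were followed by chr8:101596363-101596516 on the plus strand, 154 bases wide and 3.24 Mb from its nearest peak. On chromosome 14 a minus-strand peak of 232 bases at chr14:90298624-90298855 had 2.79 Mb empty before it and 6.55 Mb after it. Of these 4 most distant peaks, 3 were under 300 bases wide, as were 53.8% of all isolated peaks. A count over 4 peaks is too small to set against that share.

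The next 6 in order of distance were between 1.74 and 2.29 Mb from their nearest peak. A minus-strand peak at chr10:36858363-36858571 was 209 bases wide, and a plus-strand peak at chr5:48410631-48410853 was 223 bases wide. The widest of the 6 was chr16:76372455-76372899 on the minus strand, at 445 bases. Chromosome 3 had a minus-strand peak of 299 bases at chr3:62267984-62268282, chromosome 7 a plus-strand peak of 310 bases at chr7:94428731-94429040, and chromosome 8 a minus-strand peak of 254 bases at chr8:53422211-53422464. The peaks ranked 11 to 20 were 1.34 to 1.68 Mb from their nearest peak and 164 to 555 bases wide. Over the 20 most distant peaks, 10 lay on each strand, they were spread over 13 chromosomes, and their median width was 246 bases. Of these 20, 4 were wider than 374 bases, the median of the other peaks, as were 32.9% of all isolated peaks. Their nearest peak was on the same strand in 9 of the 20, and in 57.7% of all isolated peaks. Whether the 20 differ from the isolated group in either count was not tested.

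Isolated peaks were narrower than the other peaks. Their median width was 285 bases (273 to 297), with quartiles of 221 and 430, against 374 bases (369 to 380) and quartiles of 259 and 556.5 in the other peaks. In the isolated group 32.9% were wider than 374 bases (30.0 to 35.9), 17.1 percentage points fewer than in the other peaks (interval of the difference 13.9 to 20.1). Peaks of 150 to under 300 bases made up 53.8% of the isolated group and 34.5% of the other peaks, a difference of 19.3 points (16.1 to 22.6). Peaks of 600 to 1000 bases made up 11.1% and 20.7%. The distance rule depends on width only through the peak's own edges, over at most 1000 bases of 100 kb. The peak caller, its threshold and the peak heights are unknown. Whether the calling of peaks ties width to isolation was therefore not tested. Both strands showed the narrower width. Medians were 276 bases (264 to 294) for isolated plus-strand peaks and 297 bases (273 to 311) for isolated minus-strand peaks. In the other peaks they were 373 and 375 bases.

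**Figure D2:**
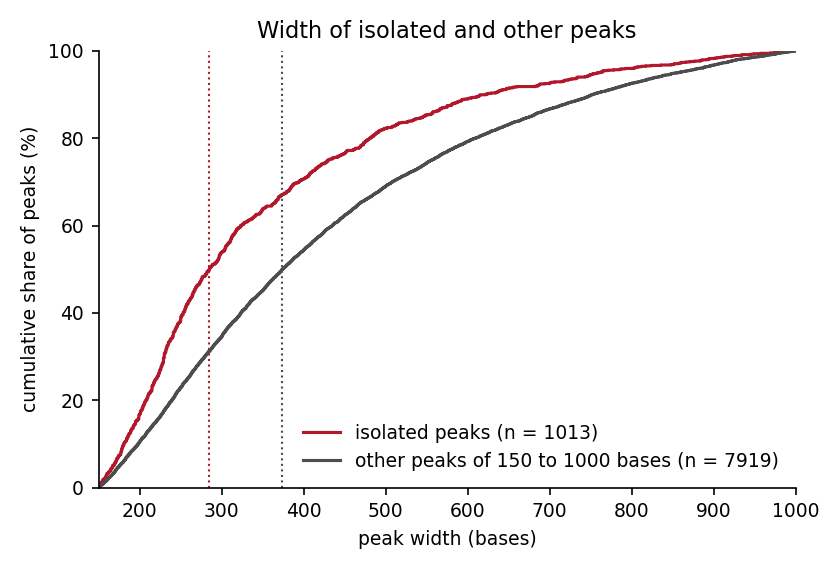
The curves give the share of peaks, in %, at or below each width in bases, for the 1013 isolated peaks (red) and the 7919 other peaks of 150 to 1000 bases (grey); dotted lines mark the medians of 285 and 374 bases. The red curve lies above the grey one between the ends of the range, and the gap is wide around 300 bases.

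Width fell step by step with distance, also among the isolated peaks themselves. In the other peaks the median was 419 bases with a neighbour under 1 kb away, 392 at 1 to 10 kb, 363 at 10 to 50 kb and 320 at 50 to 100 kb. Among the isolated peaks it was 310 bases at 100 to 200 kb (293 to 325, 528 peaks), 275 at 200 to 500 kb (260 to 299, 331 peaks) and 245 at 500 kb and over (227 to 257, 154 peaks). The medians just below and just past 100 kb, 320 and 310 bases, had overlapping intervals (308 to 333 and 293 to 325). Counted by neighbours within 100 kb, the median rose from 285 bases with 0 neighbours to 328.5 with 1, 351 with 2, 386.5 with 3 to 5 and 430 with 6 to 10. It was 368 bases with over 10 (327 to 424, 291 peaks), so the most crowded peaks did not continue the rise.

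Read the other way, the share of peaks that were isolated fell with width. Of the peaks of 150 to under 200 bases 17.1% were isolated (14.8 to 19.6), and of those of 200 to under 300 bases 16.5% (15.0 to 18.0). The share was 9.82% at 300 to under 400 bases, 8.56% at 400 to under 600 and 6.38% at 600 to 1000 (5.28 to 7.63). The same order continued outside the width range of the members, with 26.4% of 1831 peaks under 150 bases (24.4 to 28.5) and 3.36% of 982 peaks over 1000 bases (2.32 to 4.69).

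The widest isolated peaks came close to the upper limit. On chromosome 8, a minus-strand peak of 996 bases at chr8:129116843-129117838 and one of 974 bases at chr8:129468524-129469497 were each other's neighbours, 350685 bases apart. The latter was nearer, at 183196 bases, to a plus-strand peak on its other side. Chromosome 10 had a plus-strand peak of 986 bases at chr10:42481356-42482341, 323588 bases from any other. Minus-strand peaks of 983 bases at chr1:9689448-9690430 and of 981 bases at chr6:88250985-88251965 had their nearest peaks at 227785 and 126186 bases. None of these 5 was among the 20 most distant. Those 20 are a small part of the 1013 isolated peaks, so this says nothing about wide peaks in general.

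At the narrow end were 2 minus-strand peaks of 150 bases, chr13:74645292-74645441 and chr6:43615869-43616018, 593322 and 257015 bases from their nearest peaks. A width of 151 bases was shared by 5 peaks, so the 5 narrowest became 7 with ties. On the minus strand these were chr1:97728663-97728813, 518021 bases from any other peak, chr10:93451162-93451312, at 506698 bases, chr10:120284128-120284278, at 131737 bases, and chr2:13667248-13667398, at 170788 bases. The plus-strand one was chr2:4437078-4437228, at 121141 bases. These few peaks lay at near as well as far distances. Over 500 kb from any other peak were 1 of the 2 at 150 bases and 2 of the 5 at 151 bases. Of all 1013 isolated peaks, 154 were at 500 kb and over.

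The strands were evenly used. Plus-strand peaks numbered 498 and minus-strand peaks 515, a plus-strand share of 49.2% (46.0 to 52.3), against 51.4% in the other peaks. The difference, isolated minus other, was -2.25 points, with an interval that held 0 (-5.51 to 1.02). By distance the share was 47.3% at 100 to 200 kb, 49.2% at 200 to 500 kb and 55.2% at 500 kb and over, and all 3 intervals held 50%. Chromosome 1 was the 1 chromosome of 19 whose interval for the isolated peaks did not hold 50%, with 37.2% (26.5 to 48.9) of 78 peaks. The 19 intervals were not adjusted for their number, so this interval alone does not establish a strand preference on that chromosome.

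The nearest peak was on the same strand less often for isolated peaks than for the other peaks, at 57.7% (54.5 to 60.7) against 81.8% (80.9 to 82.6). The difference was 24.1 points (21.0 to 27.3). In the other peaks the share stayed high at close range, at 84.3% under 1 kb, 86.8% at 1 to 10 kb and 82.6% at 10 to 50 kb, and dropped to 64.0% at 50 to 100 kb. Among isolated peaks it was 60.4% at 100 to 200 kb (56.1 to 64.6), 52.3% at 200 to 500 kb (46.7 to 57.8) and 59.7% at 500 kb and over (51.5 to 67.6). Close to the limit it was 68.3% of 104 peaks at 90 to 100 kb (58.4 to 77.1) and 55.1% of 89 peaks at 100 to 110 kb (44.1 to 65.6), and these intervals overlap. In 109 cases 2 isolated peaks were each other's nearest peak and were counted from both sides, and with each such case counted once the share was 58.1%. This was not done for the other peaks, so the 81.8% and the difference still count mutual nearest peaks from both sides. Isolated peaks with a same-strand nearest peak had a median width of 289 bases (276 to 304), and those with an opposite-strand one 274 bases (258 to 301).

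**Figure D3:**
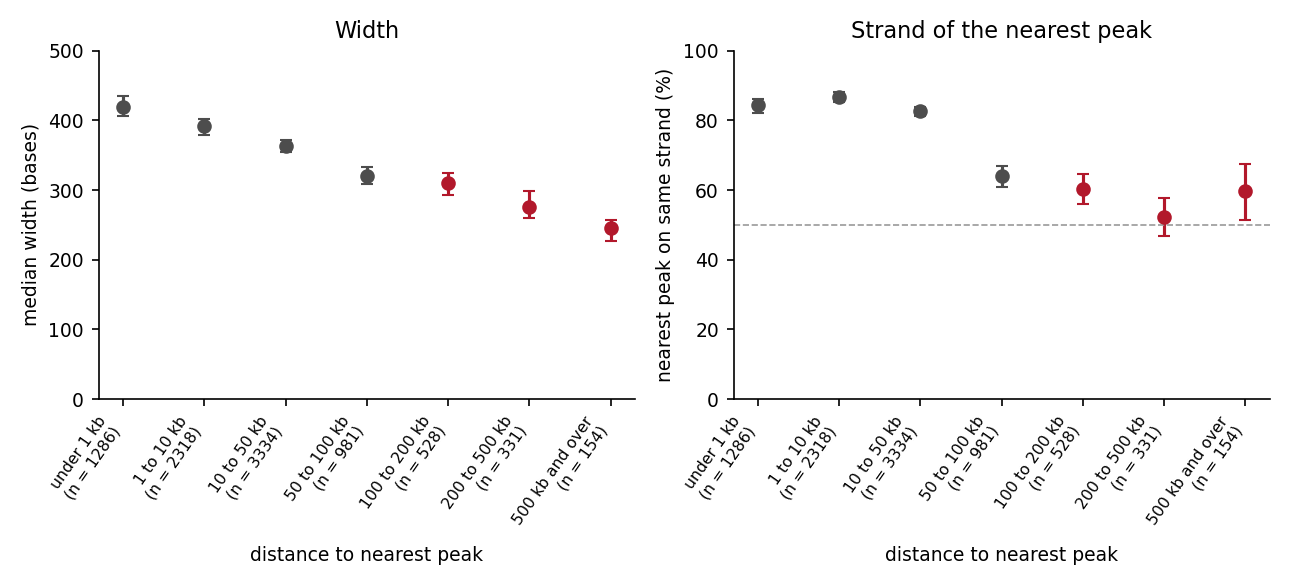
Peaks of 150 to 1000 bases are grouped by distance to their nearest peak, with isolated peaks in red and the other peaks in grey; the left panel gives the median width in bases and the right panel the share, in %, whose nearest peak is on the same strand, with bars for 95% intervals and a dashed line at 50%. The median width goes from 419 to 245 bases from left to right, and the same-strand share drops from 82.6% to 64.0% between the third and the fourth group.

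Along the direction of the strand, the empty stretch after an isolated peak was longer than the one before it in 542 of 1004 cases, or 54.0% (50.8 to 57.1). In the other peaks the share was 52.3% (51.1 to 53.4), and the difference, isolated minus other, was 1.73 points, with an interval that held 0 (-1.55 to 4.99). Which strand the lists are named for is taken from their names alone. If they were named for the opposite strand, before and after would change places, and so would divergent and convergent below.

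The surroundings of isolated peaks also held few peaks beyond the 100 kb that the rule cleared. Counted over the ring from 100 kb to 1 Mb on each side, the density was a median of 4.44 peaks per Mb (95% interval 4.44 to 5), with quartiles of 2.22 and 7.78. Around the other peaks it was 8.33 per Mb (7.78 to 8.33), with quartiles of 4.44 and 13.3. Ring density and isolation both follow the regional density of peaks, so this is a description. By distance to the nearest peak, the median among isolated peaks was 6.11 per Mb at 100 to 200 kb. It was 4.03 at 200 to 500 kb and 0.556 at 500 kb and over. The ring is empty up to the nearest peak by definition, so a lower density at longer distances is partly built in. The ring was empty for 48 isolated peaks, 4.74% (3.51 to 6.23), and for 1.39% of the other peaks. Those 48 are the isolated peaks with no other peak within 1 Mb.

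**Figure D4:**
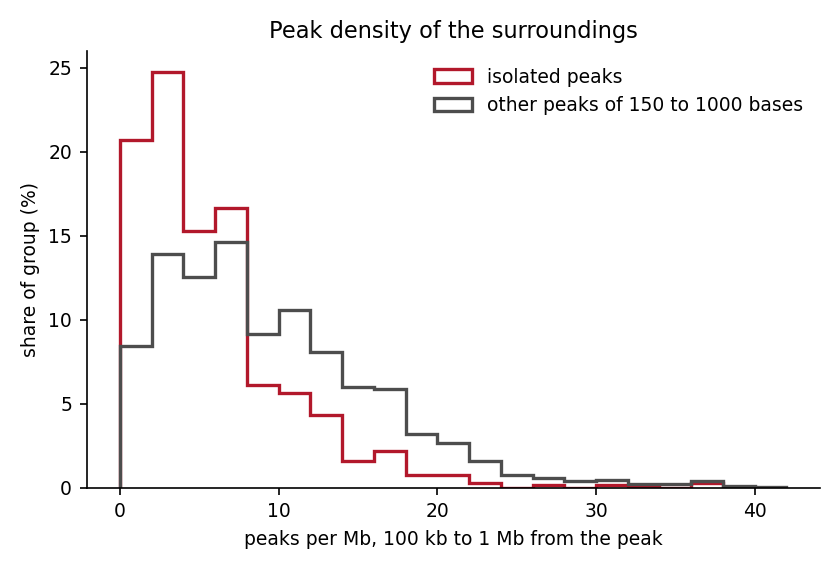
The outlines give the share of isolated peaks (red) and of other peaks of 150 to 1000 bases (grey), in %, by the number of peaks per Mb found between 100 kb and 1 Mb from the peak, in steps of 2 per Mb. The red outline is higher at low density and the grey outline at high density, around medians of 4.44 and 8.33 peaks per Mb. The groups overlap widely, and isolated peaks reach 37.8 per Mb and other peaks 41.1.

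Not all isolated peaks lay in sparse regions. All peaks of the width range were divided into 4 classes at the quartiles of ring density. Of the isolated peaks, 462 (45.6%) fell in the lowest class, up to 4.40 per Mb, and 82 (8.09%) in the highest, over 12.8 per Mb. The highest ring density was that of chr8:126554493-126555096 on the plus strand, with 68 peaks or 37.8 per Mb, although no peak lay within 200156 bases. A second plus-strand peak, chr8:125748844-125749193, had 66 peaks in its ring. For both of these, 50 of the ring peaks belonged to the array of same-strand peaks with the most members in the library, and without it the densities were 10 and 8.89 per Mb. Between them in rank was chr10:80392896-80393055 on the plus strand, a peak of 160 bases whose ring held 67 peaks, 37.2 per Mb, and none of that array. These 3 peaks were picked after seeing their values.

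Isolated peaks were narrower than the other peaks at every level of regional density. In the lowest class of ring density the medians were 268 bases (257 to 285) and 347 bases (335 to 356). In the second class they were 296 and 366 bases, in the third 311 (268 to 340) and 378 (361 to 390), and in the highest 310 (276 to 369) and 408 (397 to 421). None of these pairs of intervals overlapped. The same-strand share of the nearest peak differed as well within each class, from 56.5% against 85.3% in the lowest to 63.4% (52.0 to 73.8) against 78.4% (76.5 to 80.1) in the highest.

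Chromosomes with more peaks per Mb had a smaller isolated share, a relation that the definition brings with it. Chromosome 11, the densest at 10.01 peaks per Mb, had 43 isolated peaks, 4.92% of its peaks in the width range (3.58 to 6.57). It held 4.24% of all isolated peaks and 10.5% of the other peaks. Chromosome 17 followed with 6.36 peaks per Mb and an isolated share of 6% (3.99 to 8.61, 27 peaks), and chromosome 9 came next with 5.38 peaks per Mb and a share of 11.8% (9.11 to 15.0, 59 peaks), above the 8.03% of chromosome 7 at 5.35 peaks per Mb. At the other end chromosome 3, the sparsest autosome at 3.44 peaks per Mb, had 63 isolated peaks and a share of 16.1% (12.6 to 20.1). Chromosome 1 had the most isolated peaks, 78, and chromosome 2 had 76. Spearman's rho between density and isolated share over the 19 chromosomes was -0.88, as a description.

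**Figure D5:**
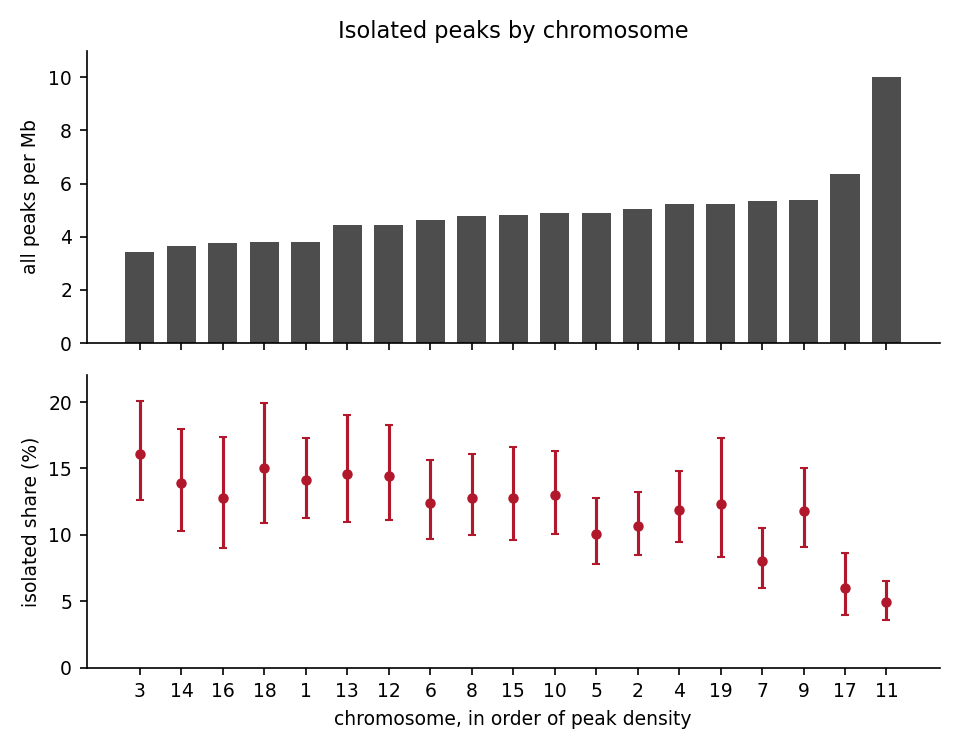
Chromosomes 1 to 19 are ordered by peak density; bars in the upper panel give all peaks per Mb of the stretch that holds the peaks of the chromosome, and points in the lower panel the isolated share of peaks of 150 to 1000 bases in %, with 95% intervals. The share lies between 10.1 and 16.1% on most chromosomes and is lowest on chromosomes 7, 17 and 11, at 8.03, 6 and 4.92%.

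The number of isolated peaks per unit of length ran from 0.293 per Mb on chromosome 17 to 0.517 per Mb on chromosome 10, a 1.76-fold range, with a median of 0.425. The density of all peaks ranged 2.91-fold, and 1.85-fold without chromosome 11, while the range for isolated peaks was 1.76-fold with and without it. Chromosome 11, with the highest density of all peaks, had 0.362 isolated peaks per Mb and chromosome 3, with the lowest, 0.408.

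The width difference was present on most chromosomes taken alone. The median width of isolated peaks was below that of the other peaks on 18 of 19 chromosomes, and on 7 of them the intervals of the medians did not overlap. On chromosome 2 the medians were 250 bases (230 to 273) and 372 bases (345 to 405), and on chromosome 11 they were 350 (279 to 414) and 421 (402 to 448). Chromosome 18 was the exception, with 366 bases (276 to 516) for 39 isolated peaks and 352 bases (324 to 384) for the other peaks. Median ring density was lower around isolated peaks on 17 of 19 chromosomes. It was 4.44 per Mb for both groups on chromosome 18, and 6.11 for isolated against 5.56 for other peaks on chromosome 16.

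The nearest peak of an isolated peak had a median width of 279 bases (259 to 291), any width counted. It was itself isolated by 100 kb in 454 of 1013 cases, or 44.8% (41.7 to 47.9), while 13.0% of all peaks on these chromosomes were. The rule already clears 1 side of such a neighbour, so a higher share follows from the choice of members. Nearest peaks that were isolated had a median width of 244 bases (230 to 265), and those that were not had 301 bases (283 to 329). Under 150 bases were 21.9% of the nearest peaks, and over 1000 bases 4.54%.

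Some places as far from all other peaks held more than a lone peak, and the rule leaves these out. With peaks of either strand within 2000 bases joined to a unit, and any width allowed, 1650 units on chromosomes 1 to 19 had no other unit within 100 kb. In 1530 of them there was a single peak. The 120 units with more peaks were 7.27% of the total (6.07 to 8.63), against 9.73% of the 8901 units with a neighbour, a difference of 2.46 points (0.976 to 3.77). Units without a neighbour are chosen for sparse surroundings, so a lower share with more peaks may be partly built in. Peaks on both strands were found in 24 of the 120, or 20% (13.3 to 28.3), and in 19.3% of the units with a neighbour that held more than 1 peak (16.7 to 22.1). The first of these intervals holds the second whole, and it is wide.

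Lone units of exactly 1 peak on each strand numbered 18. In 9 of them the peaks were divergent, with the minus-strand peak first, 1 was convergent and 8 overlapped. Divergent order is the one that transcription outward from a shared element gives, but whether these units arose that way was not tested. The divergent share of the 10 that did not overlap was 90% (55.5 to 99.7), against 73.0% of 89 among units with a neighbour (62.6 to 81.9), and the intervals overlap. Of the 9 divergent units, chr4:32050524-32051396 lay farthest from any other peak, at 652946 bases, followed by chr12:79327155-79328794 at 521210 bases and chr7:50719928-50720835 at 377993 bases. These 3 spanned 873, 1640 and 908 bases. They were picked after seeing their values, as were the overlapping units named next.

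The overlapping lone units were short. They spanned a median of 218 bases, and 5 of the 8 were under 250 bases. Of the 29 overlapping units with a neighbour 4 were, and their median was 772 bases. The limit of 250 bases was not among the planned measures. Isolated peaks of any width were narrower too, with a median of 226.5 bases against 361 in peaks that were not isolated. The most distant overlapping lone unit was chr4:79649705-79649925, where peaks of both strands covered 221 bases with no other peak within 2492867 bases. Others lay at chr5:60434071-60434262, over 192 bases and 827780 bases from any other peak, and at chr14:46432456-46432578, over 123 bases and 470174 bases away. How reads that map to several places were treated is not given in the sources used here, and its part in these units was not tested.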

How the data were processed

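Processed files of 1 of 4 libraries, YY1, were used. They are 2 peak lists deposited by the authors, 1 per strand, with 3 columns (chromosome, start, end). The submitters' processing notes name cutadapt, Bowtie, Bowtie2, SAMtools and mm9, without roles or versions. Which peak caller and threshold were used, and whether the control entered, is not given in the sources used here. Strand was taken from the list names. Starts were converted to 1-based positions. Distance was the number of bases between the edges of peaks. Ring density counted peaks from 100 kb to 1 Mb away, per Mb within the span from the first to the last peak of the chromosome. Shares have Clopper-Pearson 95% intervals, medians intervals from binomial ranks, and differences of shares Newcombe intervals. The isolated group and the measures were chosen with earlier results of these data known. Members named were the 20 most distant, the 5 widest, the 5 narrowest (7 with ties) and 3 on each side of the limit, and others are marked as chosen after their values were seen. A planned check against genes, gene markers and a sequence motif needed mm9 references and was not run. The counting was tested on simulated data, where all 300 planted isolated peaks among 3014 were found and no other was called. Python 3.11.15 was used with pandas 2.3.3, numpy 2.4.6, matplotlib 3.10.9 and scipy 1.17.1.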

Additional observations from a re-analysis of the deposited data

How the results depend on the processing

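Among 72 alternative values, 44 lay inside the 95% interval of the reported value (for counts, within 1.5 times of it), 27 lay outside and 1 changed side of 50%. A distance of 50 kb gave 1994 isolated peaks (22.3% of the range), with a median width of 304 bases, a ring density of 5.56 per Mb and a same-strand share of 60.8%. A distance of 200 kb gave 485 (5.43%), with a median of 264 bases and 29.5% wider than the median of the other peaks. It gave 2.27% on chromosome 11 and 3.33 per Mb in the ring, part of which this distance itself clears. With neighbours of the same strand only there were 1709 (19.1%), with 5.56 per Mb, and the nearest peak of either strand was on the same strand in 34.2%. That turn follows from the setting, which admits peaks with a close opposite-strand neighbour. The wider 50% of peaks gave 21.5% isolated, a median of 483 bases, 39.9% wider than the others, 6.60% on chromosome 11 and 2.22 per Mb. Here the narrower peaks were removed before distances were measured and no longer counted as neighbours. A higher isolated share and a lower ring density are therefore partly built in, and do not mean that wide peaks were isolated more often. Without a width limit there were 1530 (13.0%), with 226.5 bases and 25.5% wider. Widths of 150 to 500 bases gave 13.2% and 256 bases, joining peaks within 2000 bases 13.8%, and leaving out chromosome 11 12.0%. Isolated peaks stayed narrower than the others and the plus-strand share stayed within its interval in all settings run. Leaving out the 9 peaks at chromosome ends and counting mutual nearest peaks once were chosen after seeing the data and moved nothing outside the intervals. No paired analysis was possible because the peaks come from 1 library. Depth limits isolation itself: a stretch called empty may hold bound RNA too sparse for a peak.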

Other observations

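Runs of successive isolated peaks are described here with no baseline. The gap that isolates a peak also clears 1 side of the next, so the definition itself favours runs. With any width allowed, 1530 peaks on chromosomes 1 to 19 had no other within 100 kb, and 1065 of them lay in 371 runs of at least 2 successive isolated peaks. The longest run held 13, on chromosome 6 over 7.10 Mb from 7642819 to 14744572, of which 6 were in the width range. A run of 11 on chromosome 7 spanned 6.54 Mb from 73254409 to 79799205, with 8 in the range, and one of 9 on chromosome 1 spanned 5.45 Mb from 39959033 to 45405889, with 7 in the range. In all, 41 runs held 5 or more. These runs were chosen after their values were seen.

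Peaks outside the members' width range stood alone too, 484 of them under 150 bases and 33 over 1000 bases. On chromosome X, which the definition leaves out, 35 of 212 peaks of 150 to 1000 bases were isolated, or 16.5% (11.8 to 22.2).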
